A study of Homo sapiens with 6 samples.

Results

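TMC5 and its relatives TMC4, TMC6, TMC7 and TMC8 belong to the transmembrane channel-like family. They were examined here in HCT116 cells, an established human colon carcinoma line, that had been given the microRNA miR-224. The 5 genes were taken by name, with every probe set that the array annotation assigns to that symbol and to no other, which gave 13 of the 54675 probe sets on the array: 1 for TMC4, 5 for TMC5, 2 for TMC6, 2 for TMC7 and 3 for TMC8. The group was chosen by the miR-224 against control differences of TMC5, whose low values in experiments 2 and 3 had already been seen in these data. The differences between miR-224 and control cells are therefore given as descriptions without a test, and the lower TMC5 values support nothing by themselves.

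Both groups were HCT116 cells transfected for 24 h, one with control oligos and the other with miR-224 precursors, each at 50 nM. Total RNA was read on 6 expression arrays, 3 per group, and each control array is paired with the miR-224 array of the same experiment. As far as the labels say, the samples differ in the transfected molecule alone, so the controls carry the transfection too. The model is limited to 1 cell line, 1 dose and 1 time point, with a microRNA supplied from outside.

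TMC proteins span the membrane several times and share a conserved domain. Some relatives form the mechanically gated channel of inner ear hair cells, and the fold resembles that of the anoctamins and the TMEM63 channels. TMC6 and TMC8, also known as EVER1 and EVER2, bind the calcium-binding protein CIB1 and the zinc transporter ZnT1, which is encoded by SLC30A1, and their loss causes epidermodysplasia verruciformis, an inherited susceptibility of the skin to certain papillomaviruses. TMC4 is an epithelial protein described as a voltage-dependent chloride channel, while TMC5 is found mainly in epithelia and TMC7 is less well studied.

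A microRNA pairs with messenger RNAs chiefly through its seed, bases 2 to 8 from its 5′ end. The mature forms are shown because they are what a miR-224 precursor can give rise to in a cell. They are RefSeq's entries on GRCh38.p14, and the labels state neither the sequence of the precursor nor the arm. Capitals mark the seed.
hsa-miR-224-5p: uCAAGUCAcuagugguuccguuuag
hsa-miR-224-3p: aAAAUGGUgcccuagugacuaca
The arms have different seeds, CAAGUCA and AAAUGGU. Sites for either in TMC messages were not analysed here.

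Values are deposited RMA values, read as log2, on which each whole unit is a doubling of signal. Precision is limited by the number of arrays, 3 per group. The median of all probe sets over the 6 arrays was 3.48, and a probe set under it is called dim. Of the 13 TMC probe sets, 9 lay at or above it. Levels of different probe sets are not set against each other, since each binds its target with its own strength. In these bulk samples fewer expressing cells and less RNA per cell cannot be told apart. As a rough check of the labelled cell type, 10 of 10 epithelial markers lay above the median of all genes (4.75), with a summed level of 81.7 to 92.8 on the control and 82.3 to 91.0 on the miR-224 arrays. Lymphocyte markers, which matter because TMC6 and TMC8 are prominent in lymphocytes, lay above that median for 0 of 9 genes, with summed levels of 28.3 to 29.7 and 28.4 to 31.4. Of 9 markers of fibroblasts and endothelium 1 lay above it, with summed levels of 31.7 to 33.3 and 31.9 to 33.5. Experiment 1 stood apart in its array controls. The actin control probe set at the 5′ end read 4.28 there and 12.4 in experiments 2 and 3. The actin probe set at the 3′ end read 12.5 in both. Both arrays of experiment 1 share the low 5′ signal. Its source, and its part in any TMC value, were not tested.

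TMC5, the epithelial member after which the group is named, was lower in miR-224 cells on 3 of its 5 probe sets, by amounts that differed widely between probe sets and experiments. Its brightest probe set, 240304_s_at, read 5.98, 6.52 and 7.09 in the control cells of experiments 1, 2 and 3 and 5.71, 4.02 and 5.46 in the miR-224 cells. All miR-224 arrays lay below all control arrays, and the gap was widest in experiment 2 and narrowest in experiment 1. The differences were -0.27, -2.50 and -1.63, with a mean of -1.46 ± 0.33 (SE of the blocked limma fit, n = 3 pairs), which is 2.76-fold lower. It was -0.94 without miR-224 replicate 2, which breaks that pair, and -0.95 without experiment 2. Among 54613 probe sets ordered from the lowest difference upward, it took place 5 in experiment 2 and place 14 in experiment 3, but place 6499 in experiment 1.

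Probe set 219580_s_at of TMC5 gave another order of the experiments. It read 4.75, 4.33 and 5.36 in control cells and 3.89, 4.11 and 3.81 in miR-224 cells. The groups again did not overlap, yet here the smallest gap was in experiment 2, at -0.22, while experiments 1 and 3 gave -0.86 and -1.55. Its mean difference was -0.88 ± 0.21, or 1.84-fold lower. In experiment 1, 0.291% of all probe sets had a difference as low or lower, compared with 16.4% in experiment 2 and 0.0385% in experiment 3.

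The third, 222904_s_at, varied least between experiments of these 3. It read 4.36, 4.80 and 5.06 in control cells and 4.08, 4.22 and 4.32 in miR-224 cells, so the groups did not overlap here either. The differences were -0.29, -0.58 and -0.74, with a mean of -0.53 ± 0.12, or 1.45-fold lower. Thus the 3 probe sets that were lower in every experiment placed their largest gap in experiment 2 in 1 case and in experiment 3 in the others.

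The remaining TMC5 probe sets showed little difference. Probe set 236983_at read 4.77, 4.81 and 5.42 in control cells and 4.69, 4.84 and 4.90 in miR-224 cells. The groups overlapped, and a gap of -0.52 in experiment 3 stood beside -0.08 and 0.03 in experiments 1 and 2. Probe set 240303_at was dim throughout, at 2.64, 2.77 and 2.76 in control cells and 2.66, 2.74 and 2.49 in miR-224 cells. The annotation lists it with the same source sequence as 240304_s_at, but their mean differences were -0.10 ± 0.11 and -1.46 ± 0.33. When the 5 probe sets were averaged on each array, TMC5 was lower by -0.30, -0.66 and -0.94 in experiments 1, 2 and 3, a mean of -0.63 ± 0.12.

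**Figure D1:**
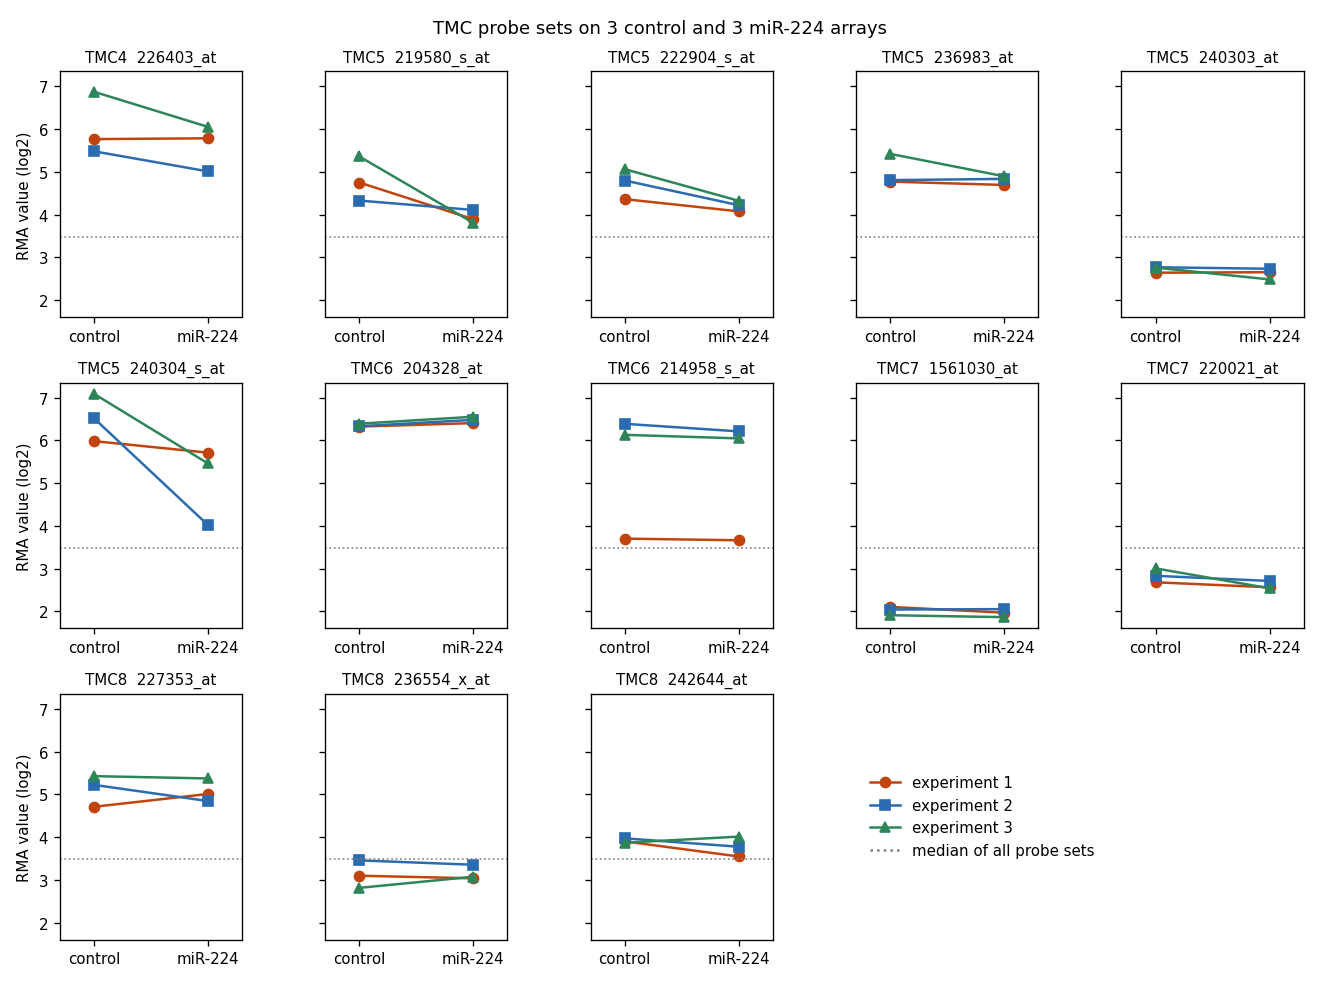
RMA value (log2) of each of the 13 TMC probe sets in control and miR-224 cells, with a line joining the arrays of one experiment and a dotted line at the median of all probe sets (3.48). TMC5 240304_s_at drops from 6.52 to 4.02 in experiment 2, and TMC6 214958_s_at reads about the same in both groups but near 3.68 in experiment 1 against 6.19 in experiments 2 and 3.

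Non-overlap of this kind was uncommon across the array but far from rare. Every miR-224 array lay below every control array at 2.64% of all probe sets, and at 1.72% of those at or above the median level, compared with 3 of 5 TMC5 probe sets and 0 of the 8 probe sets of the other members. The same 3 TMC5 probe sets were lower in all 3 experiments, which held for 14.8% of all probe sets. A difference of -0.5 or lower was found at 1, 2 and 4 of the 5 TMC5 probe sets in experiments 1, 2 and 3, and at 2.53%, 3.25% and 4.16% of all probe sets. No share is read as support, since values of this contrast led to TMC5. The test across all features called 0% of probe sets lower and 0% higher (limma with experiment as a block, Benjamini-Hochberg, lowest adjusted p = 0.0721), and hence 0 of 13 TMC probe sets, with 2946 probe sets (5.39%) lower and 2406 (4.41%) higher at an unadjusted p under 0.05. Without the block limma called 0, with 1067 (1.95%) at an unadjusted p under 0.05. With an intensity trend and robust variances it called 28 (0.0513%), of which 0 were TMC probe sets. Experiments 2 and 3 alone, with the block, gave 137 calls among 54613 probe sets with 1 residual degree of freedom, 132 of them lower. Those are the arrays on which TMC5 was noticed, so no call of a TMC probe set is read from them.

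**Figure D2:**
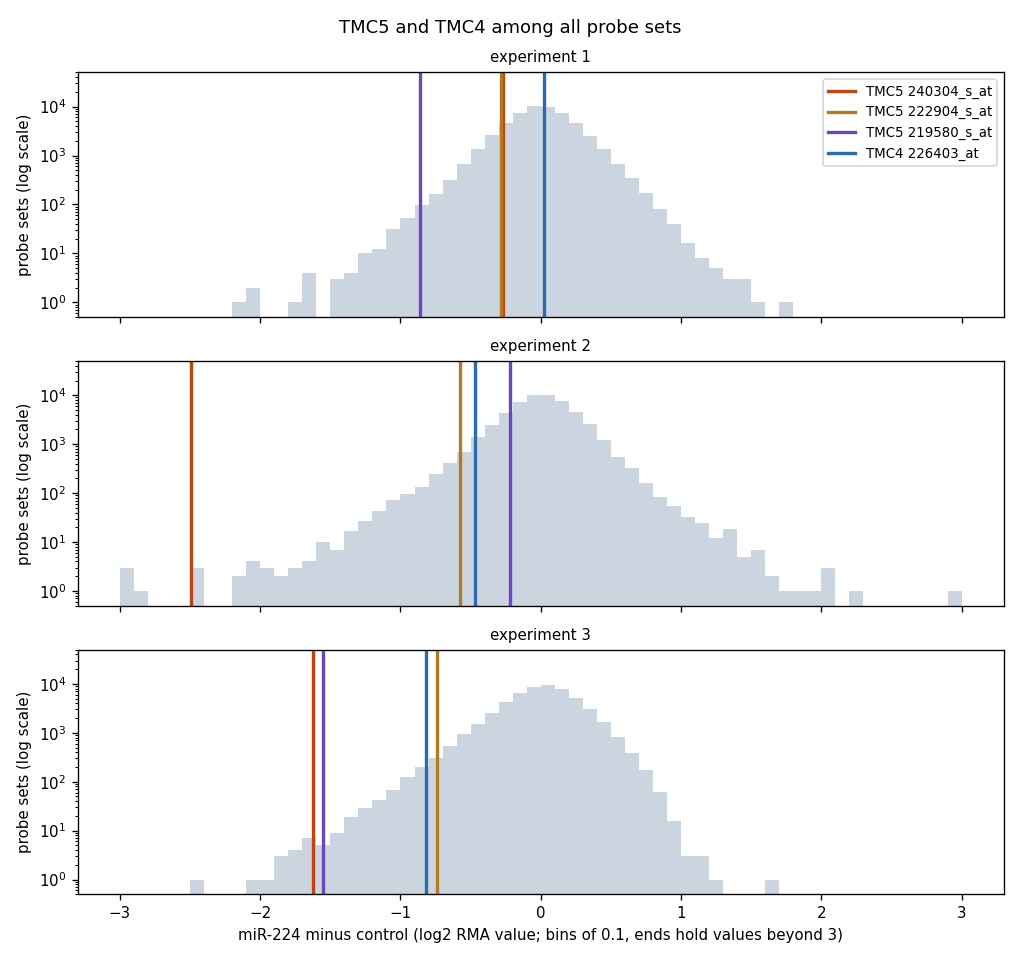
Number of probe sets (log scale) by miR-224 minus control difference (log2 RMA value, bins of 0.1) in each experiment, with lines at 3 TMC5 probe sets and at TMC4. TMC5 240304_s_at lies at the far left edge in experiment 2 (-2.50) and inside the bulk in experiment 1 (-0.27), where 219580_s_at lies further out (-0.86).

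TMC4, the epithelial member with reported chloride channel activity, was lower in experiments 2 and 3 and level in experiment 1. Its single probe set, 226403_at, read 5.77, 5.48 and 6.87 in control cells and 5.79, 5.01 and 6.05 in miR-224 cells. The groups overlapped, and experiment 3 was high in both. Within experiments the differences were 0.02, -0.47 and -0.82, with a mean of -0.42 ± 0.16 (SE of the blocked fit), with an SE of 0.44 without the block. It was -0.0069 without control replicate 3, which breaks that pair. A difference as low or lower was found at 53.6%, 3.81% and 0.857% of all probe sets in experiments 1, 2 and 3. TMC4 and the brightest TMC5 probe set thus both showed their smallest gap in experiment 1, but differed in which experiment showed the largest.

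TMC6, the EVER1 gene, differed little between the groups on either probe set. Probe set 204328_at read 6.32, 6.33 and 6.39 in control cells and 6.40, 6.48 and 6.55 in miR-224 cells. All miR-224 arrays lay above all control arrays, as at 4.02% of all probe sets, but the mean difference was 0.13 ± 0.10. The gaps of 0.08, 0.15 and 0.16 were the most even of any TMC probe set, with an SD of 0.0433. Probe set 214958_s_at read 3.70, 6.39 and 6.13 in control cells and 3.66, 6.21 and 6.04 in miR-224 cells. It was lower by a little in each experiment, at -0.04, -0.18 and -0.08, with a mean of -0.10 ± 0.10. The probe sets of TMC6 thus stood on opposite sides of 0.

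TMC8, the EVER2 gene, had 3 probe sets without a shared direction. Probe set 227353_at, the brightest, read 4.71, 5.22 and 5.42 in control cells and 5.01, 4.84 and 5.37 in miR-224 cells, with gaps of 0.30, -0.38 and -0.05. Its mean difference was -0.04 ± 0.14, and the groups overlapped. Probe set 242644_at read 3.90, 3.97 and 3.87 in control cells and 3.55, 3.77 and 4.01 in miR-224 cells, a mean difference of -0.14 ± 0.12. Probe set 236554_x_at was dim, at 3.10, 3.46 and 2.81 in control cells and 3.04, 3.35 and 3.07 in miR-224 cells, with a mean difference of 0.03 ± 0.11. No TMC8 probe set kept its sign in all 3 experiments.

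TMC7, a family member with few functional data, was dim on both probe sets. Probe set 220021_at read 2.68, 2.83 and 3.01 in control cells and 2.56, 2.71 and 2.54 in miR-224 cells. It was lower in each experiment, at -0.12, -0.12 and -0.47, with a mean of -0.23 ± 0.12, but miR-224 replicate 2 lay above control replicate 1. Probe set 1561030_at read 2.11, 2.04 and 1.91 in control cells and 1.97, 2.05 and 1.87 in miR-224 cells, a mean difference of -0.06 ± 0.10. By mean level 220021_at stood at percentile 32.1 of all probe sets and 1561030_at at percentile 4.26, so a difference in TMC7 would be hard to see here.

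**Figure D3:**
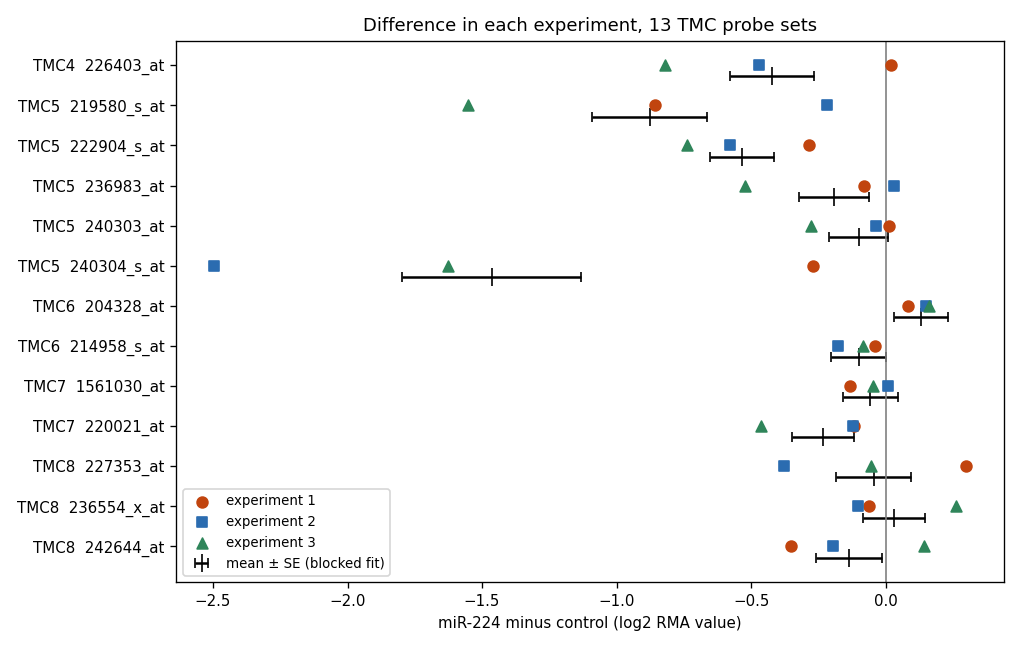
MiR-224 minus control (log2 RMA value) for each TMC probe set in experiments 1, 2 and 3 (coloured points) with the mean ± SE of the blocked fit (black). TMC5 240304_s_at spans -2.50 to -0.27, whereas both TMC6 probe sets lie within -0.18 to 0.16.

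The level of a probe set between experiments took no part in the choice of these genes and was tested. Experiment 1 was set against the mean of experiments 2 and 3 in the blocked fit, over both groups. It was singled out because of its array controls, seen on these same arrays. The SE and p come from residuals within experiments, so they do not measure the spread of levels between experiments. A single TMC6 probe set was lower: 214958_s_at had a mean of 3.68 over the arrays of experiment 1 and of 6.19 over the other 4, a difference of -2.51 ± 0.11 (limma adjusted p = 1.22e-06, and 3.76e-08 to 1.87e-05 over the alternatives). The difference was present in both groups, with control replicate 1 at 3.70 and miR-224 replicate 1 at 3.66. The other TMC6 probe set, 204328_at, read 6.36 and 6.44, a difference of -0.08 ± 0.11 that did not pass (adjusted p = 0.688). Across the array 11.5% of probe sets were called lower and 17.7% higher in experiment 1, so 1 of 13 TMC probe sets lower and 0 higher is no more than the background. The 5′ signal of the actin and GAPDH controls moved the same way, at 4.10 against 13.0 for GAPDH, and its part in the TMC6 value was not tested.

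No TMC5 probe set passed this test in the fit given here. For 240304_s_at the difference was 0.07 ± 0.35, and it turned with single arrays: 0.97 without control replicate 1 (adjusted p = 0.0196) and -0.82 without miR-224 replicate 1 (adjusted p = 0.0411). For 222904_s_at it was -0.38 ± 0.13 (adjusted p = 0.054). This one passed among probe sets at or above the median level (0.0438), without miR-224 replicate 1 (0.0367), without miR-224 replicate 3 (0.0409) and against experiment 3 alone (0.041). The difference was -0.26 ± 0.14 for 236983_at and -0.08 ± 0.23 for 219580_s_at. TMC4 stood at -0.08 ± 0.17, and its mean over both groups was 5.78 in experiment 1, 5.25 in experiment 2 and 6.46 in experiment 3. Against experiment 3 alone TMC4 was lower in experiment 1 by -0.69 (adjusted p = 0.0263), while against experiment 2 alone the difference was 0.53 (adjusted p = 0.0883, not passed). Whether the gap between miR-224 and control cells differs between experiments was not tested, as the gaps of experiments 2 and 3 led to TMC5.

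**Figure D4:**
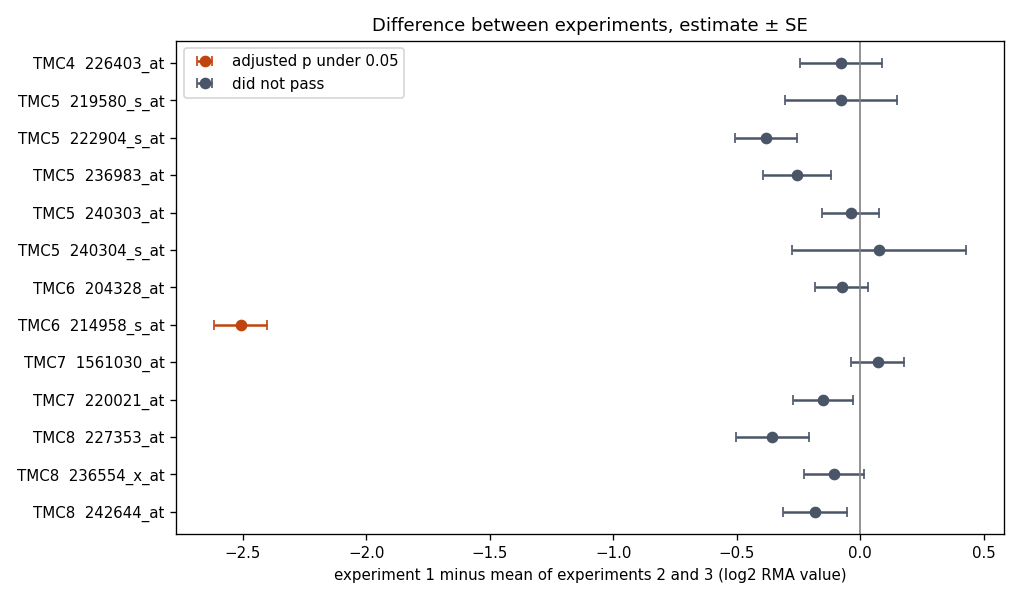
Experiment 1 minus the mean of experiments 2 and 3 (log2 RMA value, estimate ± SE of the blocked fit) for the 13 TMC probe sets. TMC6 214958_s_at lies at -2.51 and passed the test, while the other 12 lie between -0.38 and 0.07.

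Genes whose pattern over the experiments was closest to that of TMC5 240304_s_at were sought among probe sets at or above the median level. The measure was the Euclidean distance between the 3 paired differences. The closest was U2SURP, an RNA-binding protein associated with the U2 snRNP of the spliceosome, at -0.33, -2.11 and -1.63 (distance 0.386). It was followed by IPO7, a nuclear import receptor, at -0.36, -2.17 and -1.36 (distance 0.435), and SUMF1, the activator of sulfatases, at -0.59, -1.92 and -1.62 (0.660). The next were the nuclear pore gene NUP58 (0.716), the clathrin adaptor partner NECAP1 (0.743) and FRMD8, a partner of the iRhom proteins (0.772). All 6 had their largest gap in experiment 2 and their smallest in experiment 1, as TMC5 240304_s_at did. A shared order is favoured by the choice itself, which was made on these same gaps. These distances rest on 3 differences from the same arrays, in which TMC5 was already low, and are a description.

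RefSeq's gene table was used for the order of genes along the chromosomes, and 4 of the 5 TMC genes have another close by. TMC7 and TMC5 are separated by COQ7, ITPRIPL2, SYT17 and CLEC19A, and TMC6 and TMC8 are direct neighbours, while TMC4 has no other TMC gene within 5 places. Of 34 protein-coding genes within 5 places of a member, 28 were measured. Of these, 12 had a lower mean (46.8% of all genes did), 3 were lower in all 3 experiments (14.4% of all genes) and 10 were higher in all 3 (18.3%). Their median difference was 0.06, against 0.01 for all genes. The fit called 0 of the 28, and 0% of all genes.

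Of these neighbours 1 was lower by 0.5 or more, as were 0.986% of all genes, and it lies between TMC7 and TMC5. ITPRIPL2, a little-studied gene related to the inositol trisphosphate receptor-interacting proteins, read 8.36, 8.26 and 9.09 in control cells and 7.77, 7.16 and 7.81 in miR-224 cells on its brightest probe set. The groups did not overlap, the gaps were -0.58, -1.09 and -1.28, and the mean was -0.99 ± 0.14 (limma adjusted p = 0.105, not passed). Of its other 5 probe sets, 227514_at stood at -1.22, 1568619_s_at at -0.86 and 227954_at at -0.46, while 227956_at and 228074_at stood at -0.08 and 0.09. TMC5 (-1.46) and, by less, TMC7 (-0.23) were lower too, but the other genes named here did not share this. COQ7, of coenzyme Q synthesis, was at 0.12 ± 0.14, and SYT17, a synaptotagmin, at 0.12 ± 0.14. On the other side of TMC5, the phosphodiesterase gene GDE1 was at -0.03 ± 0.11 and CCP110, which caps centrioles, at -0.12 ± 0.13.

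Beside TMC6 and TMC8 lies TNRC6C, a GW182 protein that links Argonaute to mRNA decay. It was the one neighbour higher by 0.5 or more, as were 0.491% of all genes. Its brightest probe set read 5.00, 4.28 and 4.52 in control cells and 5.71, 5.53 and 4.95 in miR-224 cells, which overlapped. The gaps were 0.72, 1.26 and 0.42, with a mean of 0.80 ± 0.15 (limma adjusted p = 0.157, not passed). Its other 6 probe sets lay between -0.13 and 0.25. C17orf99 (0.06 ± 0.10) and SYNGR2, a vesicle protein (0.05 ± 0.11), showed little difference. Around TMC4, LENG1 stood at 0.27 ± 0.12, CNOT3, of the CCR4-NOT deadenylase, at 0.19 ± 0.15, the lipid acyltransferase gene MBOAT7 at 0.14 ± 0.10, and TSEN34, of tRNA splicing, at 0.09 ± 0.10. TMC4 was thus the lowest of these 5 adjacent genes.

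**Figure D5:**
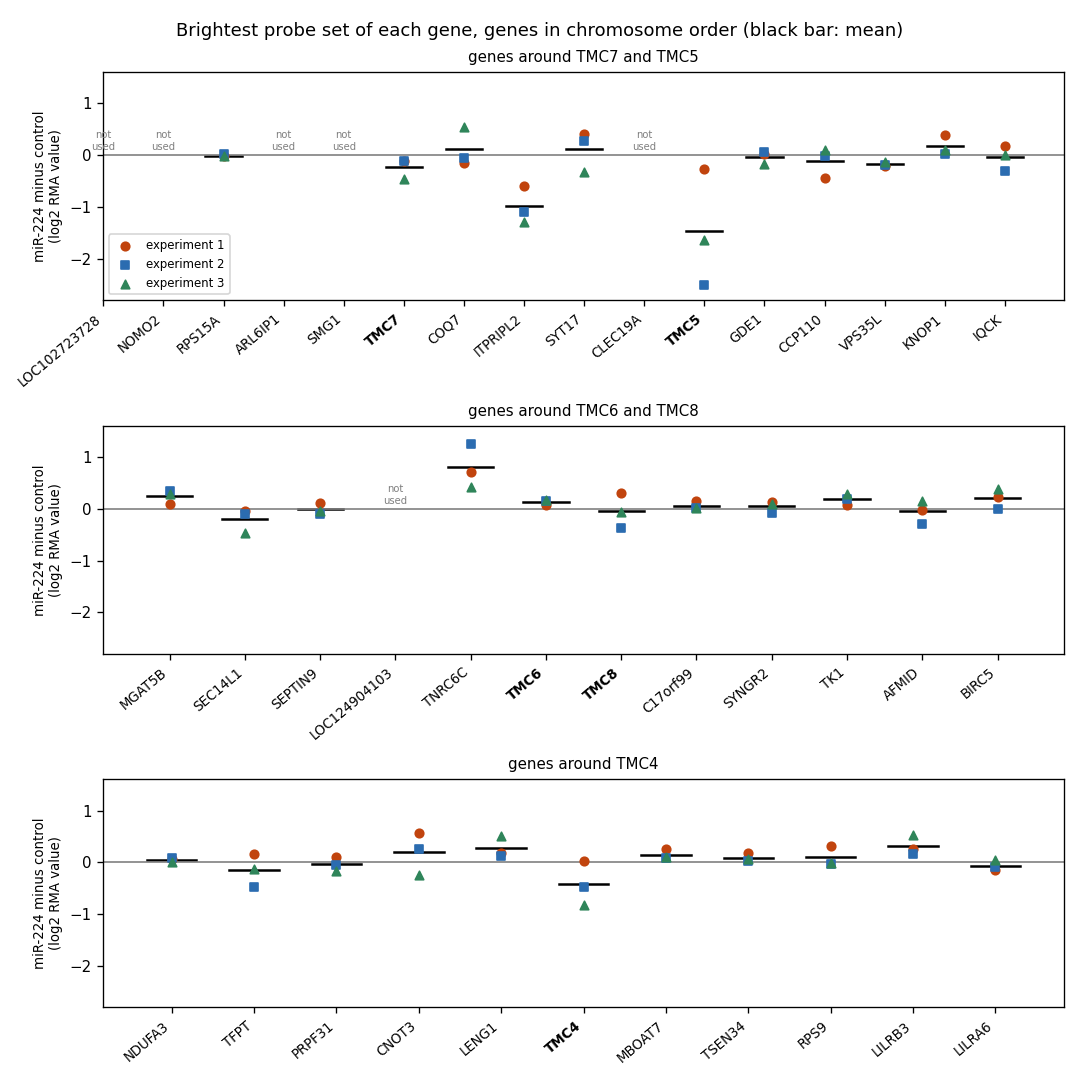
MiR-224 minus control (log2 RMA value) of the brightest probe set of each gene in chromosome order around the TMC genes (bold), with a point per experiment and a bar at the mean. ITPRIPL2 (-0.99) and TMC5 (-1.46) stand below their neighbours, and TNRC6C (0.80) above.

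Partners and relatives of the TMC proteins showed small differences, each read on a gene's brightest probe set, and 0 genes of any list passed the test. Of 25 genes of zinc handling and TMC6 or TMC8 partners, 16 were lower (46.8% of all genes were). Of them 5 were lower in all 3 experiments (14.4% of all genes). Their median was -0.05 against 0.01 for all genes. These values over all genes also stand beside the counts of the lists that follow. SLC30A1, the zinc exporter bound by TMC6 and TMC8, had the smallest p of the list, at -0.41 ± 0.12 with gaps of -0.20, -0.32 and -0.71 (limma adjusted p = 0.284). MT1E, a zinc-binding metallothionein whose probes can cross-react with its near-identical relatives, stood at -0.33 ± 0.15, and SLC30A6, a zinc transporter of the Golgi, at 0.26 ± 0.11. The zinc importer SLC39A1 stood at -0.22 ± 0.11.

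Of 13 anoctamins and TMEM63 channels, the structural relatives, 6 were lower and 7 higher, with a median of 0.02. ANO10 stood at 0.34 ± 0.12 and ANO8 at -0.25 ± 0.10, the latter with gaps of -0.26, -0.26 and -0.25. ANO1, the calcium-activated chloride channel, was at -0.18 ± 0.11. Of 9 partners of the hair cell channel, 3 were at or above the median level of genes and 6 were higher, with a median of 0.13. USH1C, the scaffold harmonin, stood at 0.38 ± 0.12 and MYO7A, an unconventional myosin, at 0.36 ± 0.12. The cadherin genes PCDH15 and CDH23 went the other way, at -0.18 ± 0.11 and -0.20 ± 0.12. MYO7A, PCDH15 and CDH23 lay under the median level of genes.

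Of 21 measured genes of chloride channels, chloride transport and cell volume regulation, 8 were lower and 13 higher, with a median of 0.07. TMC4 has been described as a chloride channel, but not every gene of this list encodes one. CLIC3, an intracellular chloride channel protein, had the smallest p, at -0.44 ± 0.10 with gaps of -0.36, -0.54 and -0.42 (limma adjusted p = 0.224). CLIC4, of the same family, was at 0.41 ± 0.12, LRRC8A, the essential subunit of the volume-regulated anion channel, at 0.27 ± 0.11, and CLCN6, a late endosomal exchanger, at -0.29 ± 0.12. The lowest mean difference of any list member was -0.44. It is not set against that of TMC5, which was chosen for its low values.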

How the data were processed

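The deposited values are log2 values of 6 Affymetrix arrays that the authors made with RMA and Partek, per the submitters' processing notes, which give no versions. The base is not stated and was taken as 2, as RMA commonly gives. RMA evens out array distributions, so differences are relative to the bulk of genes. Gene names came from the array annotation (41097 probe sets with 1 symbol, 1801 with several, 11721 without), and 0 symbols changed through the RefSeq table. The 62 control probe sets were left out.

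All 54613 others entered 1 limma fit (version 3.58.1, R 4.3.3, two-sided moderated test, p adjusted by Benjamini-Hochberg across the array, threshold 0.05) with experiment as a block, which leaves 2 residual degrees of freedom (4 without it). The series text speaks of pairs and the titles number them. Deviations from the group means correlated at 0.902, 0.734 and 0.783 between same-numbered arrays, across probe sets, which are not independent. Between unmatched arrays of experiments 2 and 3 the correlation was 0.474. Unmatched pairs with an array of experiment 1 gave -0.777 to -0.714. Lists and neighbours used the brightest probe set of each of 19775 genes, in a fit of its own, so that a gene's SE can differ slightly from that of its probe set. Members, lists and tests were chosen with earlier results of these data known. Genes named were the members, up to 4 of a list by smallest p, the 6 closest to TMC5, and neighbours within 2 places or differing by 0.5 or more. The fits were tested on simulated data. Plots used matplotlib 3.10.9 (Python 3.11.15). Alternatives were the block, arrays or experiments left out, array scaling, variance model, a filter on dim probe sets and the choice of probe set.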

Additional observations from a re-analysis of the deposited data

How the results depend on the processing

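The 3 TMC5 probe sets with separate groups, and TMC4, kept their sign in every alternative run. So did TMC5 240303_at, TMC6 204328_at, TMC8 242644_at and both TMC7 probe sets, so a kept sign is not particular to the former. The variance model and the filter on dim probe sets leave a difference as it is and could not turn a sign. The difference of TMC5 240304_s_at ranged from -1.79 to -0.94 without single arrays, which breaks a pair, and was -2.06, -0.95 and -1.38 with the block and without experiment 1, 2 or 3, and -0.63 as the mean of all TMC5 probe sets. TMC4 ranged from -0.70 to -0.0069 (without control replicate 3), and TMC5 236983_at turned to 0.02 without the same array. TMC8 227353_at turned in 4 and 236554_x_at in 3 alternatives. TMC6 214958_s_at ranged from -0.95 (without control replicate 1) to 0.72 (without miR-224 replicate 1), since its arrays of experiment 1 lie apart. The replicate block changed no difference, only its SE: for TMC5 240304_s_at 0.51 without and 0.33 with it. The count of probe sets called was 0 with and without the replicate block, 137 with experiments 2 and 3 alone, 0 without experiment 2 or 3, 28 with an intensity trend and robust variances, and 0 otherwise. The count of TMC probe sets that differed between experiments was 1, with 2 among brighter probe sets alone and 4 against experiment 3 alone. No count is given without single arrays, which leaves 1 array in an experiment. Those added in one or more alternatives were TMC5 222904_s_at, TMC8 227353_at and TMC4. Shares over all probe sets were not taken for the alternatives. In the fit given here 11.5% were called lower and 17.7% higher, so the counts are not read as a result about TMC genes. The TMC6 probe set passed in all alternatives. The difference of TMC5 240304_s_at between experiments was 0.97 without control replicate 1 and reversed to -0.82 without miR-224 replicate 1. The former compares miR-224 arrays alone and the latter control arrays alone. The causes were not tested.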
